A study of Mus musculus with 24 samples.

Results

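The 9 genes Cs, Idh3a, Idh2, Ogdh, Suclg1, Sdha, Sdhb, Fh1 and Mdh2 encode enzymes of the tricarboxylic acid (TCA) cycle, or a subunit of one. They were listed by name and function, with earlier results of these data known, and all 9 were found once each among the 16572 gene names of the RNA-seq table. The question was how the transcripts of the cycle compared between oocytes grown in vitro in 5% O2 and in 20% O2. Immature oocytes were released by enzymes from ovaries of 7-day-old mice, labelled as strain C57BL/6 Barb and described in the study's methods as a cross of a C57 Black6 with an SV129 background. They were grown without follicles, at first on theca-like cells of the same digest, and pools of the largest oocytes (class IV) were collected by size. The IV 5% O2 oocytes had been cultured for 9 days and the IV 20% O2 oocytes for 14 days, with 2 strand-specific libraries of ribosome-depleted total RNA each. Oxygen, culture time and the interval between medium changes therefore cannot be told apart. The labels give a diameter of 60 to 70 μm for both groups, while the study's text gives a smaller range for 20% O2. The labels name no deletion and no drug for these groups, and oocytes grown in vivo were not used here.

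The TCA cycle runs in the mitochondrial matrix, where it burns acetyl-CoA to carbon dioxide and passes the electrons to the respiratory chain as NADH and FADH2. Growing oocytes take up little glucose of their own and depend on pyruvate, which enters the cycle through pyruvate dehydrogenase. The cycle also sets the supply of 2-oxoglutarate, the co-substrate of the enzymes that hydroxylate HIF and that demethylate histones and DNA, while succinate and fumarate inhibit these enzymes. All of its enzymes are encoded in the nucleus and imported.

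The table holds 1 pooled value per gene and condition, so no value has an SD, a p-value or a replicate check. Its log2 values were turned back into RPM, the reads of a gene relative to all reads of its column, at depths of 132185252 reads for IV 5% O2 and 40875358 for IV 20% O2, the former being the more precise. Differences are log2(RPM + 1) in IV 5% O2 minus IV 20% O2, which understates differences of low genes. Ratios are of RPM without that addition, and the 95% intervals beside the ratio of a gene between the columns are exact (Clopper-Pearson). Where a ratio between genes is compared between the columns, the interval is approximate, from a normal approximation on the log scale. Those of RPKM are Poisson intervals. All of these intervals cover counting error only, as the reads carry no molecular identifiers, and compare these libraries rather than the conditions. With no read found, a level of up to 3 reads remains possible, which is 0.0227 RPM in the deeper column and 0.0734 RPM in the other. On average over both columns, 14704 genes reached 1 RPM, among them 8 of the 9 cycle enzymes; Idh2 lay under it. The median difference of the 14704 genes was 0.26 as deposited. It was -0.04 after median-ratio scaling and 0.06 after quantile normalization, which took the share of higher genes among those at least 2-fold apart from 67.0% to 45.6% and 48.6%. Differences are therefore also given relative to the median gene. Coordinates are those of the table, on GRCm38 (mm10), and span the whole gene.

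The oocyte identity of the libraries was checked first. All 12 oocyte markers had reads, 3 being higher and 9 lower in IV 5% O2 as deposited (all genes 62.6% higher), with a summed level of 10221 RPM in IV 5% O2 against 14101 RPM in IV 20% O2. Of 12 granulosa markers 6 were in the table and summed to 40.3 and 29.1 RPM, led by Nr5a2, with Inha at 0 in IV 20% O2 and Fshr at 0 in IV 5% O2. Of 18 theca and stroma markers 11 were in the table, and 10 of them were higher in IV 5% O2 as deposited (against the same 62.6%), with sums of 46.1 and 7.17 RPM; Col1a2, Vim and Dcn were at 0 in IV 20% O2. Of 8 macrophage markers 4 were in the table and summed to 24.9 and 22.6 RPM. Of these 3 were higher in IV 5% O2 (all genes 62.6%) and 1, Csf1r, was lower (9.28 and 15.0 RPM). Of 6 endothelial markers 3 were in the table, all higher in IV 5% O2, with sums of 61.0 and 36.1 RPM. Most of that was Pecam1 (45.9 and 32.7 RPM). Lyz2 and Kdr of these lists were at 0 in IV 20% O2. Of 6 erythroid markers 1, Alas2, was in the table, with 1.32 and 1.57 RPM. In such bulk samples, fewer cells of a type cannot be told from less RNA per cell. The part of these cells in the values of the cycle enzymes was not tested.

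The cycle enzymes differed in both directions. Fumarase (Fh1) was the highest of the 8, at 2-fold in IV 5% O2, and the first subunit of the 2-oxoglutarate dehydrogenase complex (Ogdh) was the lowest. Citrate synthase, Sdha and Sdhb of succinate dehydrogenase and malate dehydrogenase lay between -0.06 and 0.17. As deposited, 4 of the 8 were higher in IV 5% O2 and 4 were lower, against 62.6% of all genes higher. After median-ratio or quantile scaling 2 were higher. The median gene then lay at -0.04 and 0.06, so the 62.6% does not apply to that count. At least 2-fold higher was 1 of the 8 (all genes 18.7%) and at least 2-fold lower were 0 of the 8 (all genes 9.22%). The 8 enzymes had a median difference of 0.08, or -0.18 relative to the median gene, and 2 of them, Idh3a and Fh1, lay above the median gene. The sign of this median turned with the scaling, to -0.24 after median-ratio scaling and -0.14 after quantile normalization.

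**Figure D1:**
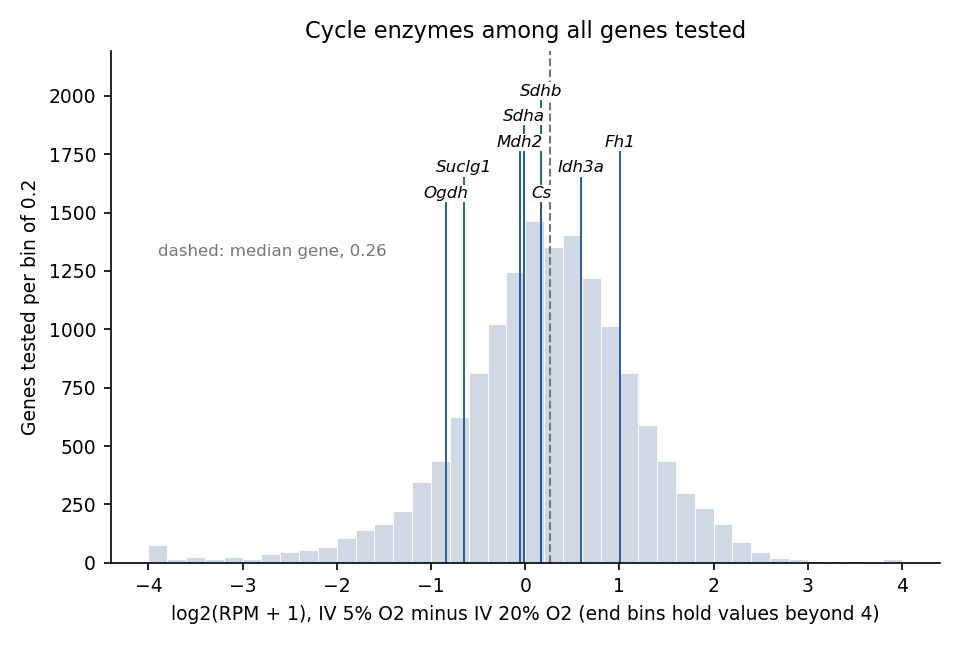
Number of genes (y axis) in bins of the log2(RPM + 1) difference, IV 5% O2 minus IV 20% O2 (x axis), for the 14704 genes that reached 1 RPM on average; lines mark 8 cycle enzymes and the dashed line the median gene at 0.26. The enzymes run from -0.84 (Ogdh) to 1.00 (Fh1), with Cs, Sdha, Sdhb and Mdh2 near the centre.

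The promoters of the enzymes at either end of this range, Fh1 and Ogdh, and of Sdha, whose level as deposited was nearly the same in both groups, show what lies at their starts. They are from RefSeq on GRCm38.p6 and run from 250 bases before to 50 after a transcription start, 5′ to 3′ on the strand of the gene. Capitals mark ACGTG or its reverse complement CACGT, 1 form of the core of the hypoxia response element (the form GCGTG was not searched); CACGTG, the E-box, which holds it on both strands; and CGCATGCG, the centre of the site of the respiratory factor NRF1. The windows are Fh1 at chr1:175625586-175625885 (minus strand), 2 of the 6 annotated starts of Ogdh at chr11:6291347-6291646 and chr11:6292308-6292607 (plus strand), and Sdha at chr13:74350191-74350490 (minus strand).
Fh1: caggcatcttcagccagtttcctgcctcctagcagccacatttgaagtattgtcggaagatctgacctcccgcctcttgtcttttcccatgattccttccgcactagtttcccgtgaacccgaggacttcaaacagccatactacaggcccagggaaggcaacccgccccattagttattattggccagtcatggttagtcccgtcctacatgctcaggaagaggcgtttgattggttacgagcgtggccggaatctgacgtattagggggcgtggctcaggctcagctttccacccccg
Ogdh, upstream start: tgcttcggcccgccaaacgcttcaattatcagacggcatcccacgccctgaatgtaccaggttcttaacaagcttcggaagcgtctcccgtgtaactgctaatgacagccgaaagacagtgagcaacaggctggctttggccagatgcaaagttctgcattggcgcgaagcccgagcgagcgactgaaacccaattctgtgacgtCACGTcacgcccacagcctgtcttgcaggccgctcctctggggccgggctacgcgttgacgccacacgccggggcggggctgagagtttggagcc
Ogdh, downstream start: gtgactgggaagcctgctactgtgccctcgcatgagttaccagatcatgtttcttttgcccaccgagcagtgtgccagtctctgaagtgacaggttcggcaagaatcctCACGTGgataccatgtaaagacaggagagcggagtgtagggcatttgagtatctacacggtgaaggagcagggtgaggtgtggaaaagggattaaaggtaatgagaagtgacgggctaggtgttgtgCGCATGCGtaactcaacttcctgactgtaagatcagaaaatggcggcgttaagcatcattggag
Sdha: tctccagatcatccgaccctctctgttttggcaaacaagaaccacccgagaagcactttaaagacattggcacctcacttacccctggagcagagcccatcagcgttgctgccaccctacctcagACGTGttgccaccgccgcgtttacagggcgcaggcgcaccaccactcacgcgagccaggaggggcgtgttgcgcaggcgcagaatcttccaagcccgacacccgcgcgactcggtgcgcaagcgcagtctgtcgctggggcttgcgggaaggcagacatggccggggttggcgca

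The table of promoters held 13 windows for 8 of the enzymes, all but Idh3a. ACGTG was found on either strand in all 6 windows of Ogdh and in that of Sdha, and in 19.6% of all 32851 promoters. CACGTG lay in 3 of the Ogdh windows (7.15% of all promoters) and CGCATGCG in 2 of them (1.87%). CCGGAAGT, an ETS site as bound by GABPA, and TCAAGGTCA, bound by ESRRA, were in none of the 13 windows (3.89% and 0.423% of all promoters). The window of Fh1 held none of the 5 motifs searched. It does hold GCGTG, the form of the hypoxia core that was not searched, as does the window of Sdha. The upstream Ogdh window holds its reverse complement CACGC. This form was not counted over other promoters, so the search does not tell which enzymes have a hypoxia core. Several windows of Ogdh overlap, so the counts are also given by gene. ACGTG was found for 2 of the 8 genes, or 25%, against 21.8% of all 27025 genes, and CACGTG and CGCATGCG for 1 gene each, or 12.5%, against 8.09% and 2.07%. A comparison with the genes that reached 1 RPM is incomplete, as 10831 of 14704 were in the table of promoters. Among these 10831 genes the shares were higher, at 28.7% for ACGTG, 11.7% for CACGTG and 4.27% for CGCATGCG. The 25% for ACGTG lay below its share, and the 12.5% for CACGTG was near its share. CCGGAAGT and TCAAGGTCA, found for 0 of the 8 genes, had shares of 8.84% and 0.351% among them. These are matches of letters and no measurement of binding.

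Citrate synthase (Cs), on chr10:128337734-128362479, joins acetyl-CoA to oxaloacetate and so admits carbon to the cycle. Its level was 30904 reads, or 234 RPM, in IV 5% O2 against 8474 reads, or 207 RPM, in IV 20% O2, the most reads of any of the 9 in both columns. The ratio was 1.13 (1.10 to 1.16) and the difference 0.17, which was -0.09 relative to the median gene and turned to -0.15 and -0.07 after median-ratio and quantile scaling.

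Isocitrate is oxidized to 2-oxoglutarate by an NAD-linked enzyme, which is specific to the mitochondrion and regulated by energy charge, and by an NADP-linked enzyme. The catalytic subunit of the former, Idh3a (chr9:54586334-54604661), had 13189 reads, or 99.8 RPM, in IV 5% O2 against 2698 reads, or 66.0 RPM, in IV 20% O2. The ratio was 1.51 (1.45 to 1.58) and the difference 0.59, or 0.33 relative to the median gene. It stayed higher in IV 5% O2 at 0.27 and 0.39 after median-ratio and quantile scaling. The other subunits of the same enzyme were lower in IV 5% O2: Idh3b, with 8.59 and 13.5 RPM, differed by -0.59, and Idh3g, with 9.90 and 14.4 RPM, by -0.50. Per exonic length, Idh3a stood 7.83 times above Idh3b in IV 5% O2 and 3.31 times in IV 20% O2, and the ratio between these was 2.37 (2.12 to 2.64). For Idh3a against Idh3g the values were 5.37, 2.44 and 2.20 (1.98 to 2.44). Such ratios within a column are not moved by a scaling with 1 factor per column.

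The NADP-linked mitochondrial enzyme, Idh2 (chr7:80094846-80115392), which feeds glutathione and thioredoxin reduction, had the lowest level of the 9. There were 157 reads, or 1.19 RPM, in IV 5% O2 against 14 reads, or 0.343 RPM, in IV 20% O2. With a mean of 0.765 RPM it did not reach 1 RPM. It is left out of the counts and medians over 8 enzymes but is part of those over all 9. The ratio was 3.47, with a counting interval of 2.01 to 6.49 that was the widest of the 9, and the difference on the log2(RPM + 1) scale was 0.70. That difference was 1.54 with an addition of 0.1 RPM and 0.21 with 5 RPM. After median-ratio and quantile scaling it was 0.58 and 0.16, and 0.37 after division by exonic length. Its cytosolic counterpart Idh1, which makes NADPH outside the mitochondrion, had 62.9 and 16.7 RPM, a difference of 1.85. Per exonic length, Idh1 stood 49.5 times above Idh2 in IV 5% O2 and 45.6 times in IV 20% O2, and the interval of the ratio between these, 0.624 to 1.88, included 1.

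The 2-oxoglutarate dehydrogenase complex, the step between 2-oxoglutarate and succinyl-CoA, held the lowest of the 9 differences. Ogdh (chr11:6291633-6356642), its thiamine-dependent first subunit, had 9489 reads, or 71.8 RPM, in IV 5% O2 against 5295 reads, or 130 RPM, in IV 20% O2. The ratio was 0.554 (0.536 to 0.573) and the difference -0.84, or -1.10 relative to the median gene, and 11.5% of all genes lay lower. After median-ratio and quantile scaling the difference was -1.16 and -1.05, past the 2-fold limit, as it was for 13.9% and 12.7% of all genes. Ogdhl, the paralogue of Ogdh, was lower by a like amount, with 25.8 and 50.5 RPM and a difference of -0.95. Of the subunits that Ogdh works with, Dlst, the succinyl-transferring core, was higher in IV 5% O2, with 201 and 155 RPM (0.37, and 0.055 and 0.14 after the other scalings). Dld, the last subunit, which pyruvate dehydrogenase shares, was lower like Ogdh but by less, with 167 and 185 RPM (-0.15, and -0.47 and -0.40 after the other scalings). Per exonic length the Ogdh to Dlst ratio was 0.626 in IV 5% O2 and 1.47 in IV 20% O2, a ratio of 0.427 (0.409 to 0.446). With the length of the longest transcript the same ratios were 0.279 and 0.653, so which of the subunits was the more abundant in IV 20% O2 depended on the length used. Ogdh to Ogdhl was nearly level, at 2.12 and 1.95, a ratio of 1.09 (1.02 to 1.16).

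Succinyl-CoA ligase makes succinate and ATP or GTP, and its subunits differed in opposite directions. Suclg1 (chr6:73248382-73276911), the alpha subunit common to both forms, had 1459 reads, or 11.0 RPM, in IV 5% O2 against 733 reads, or 17.9 RPM, in IV 20% O2. The ratio was 0.616 (0.563 to 0.674) and the difference -0.65, and -0.91 against the median gene, with values of -0.95 and -0.80 after the other scalings. The beta subunits were higher in IV 5% O2: Sucla2, of the ATP form, had 132 and 76.5 RPM (0.78), and Suclg2, of the GTP form, 23.6 and 14.4 RPM (0.68). For Suclg2, 11.6% of the exonic windows of 100 bases occurred elsewhere in the genome, so its value is uncertain. The Suclg1 to Sucla2 ratio per exonic length was 0.0720 in IV 5% O2 and 0.203 in IV 20% O2, a ratio of 0.355 (0.323 to 0.392). Suclg1 to Suclg2 was 0.469 and 1.25, a ratio of 0.375 (0.331 to 0.425).

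**Figure D2:**
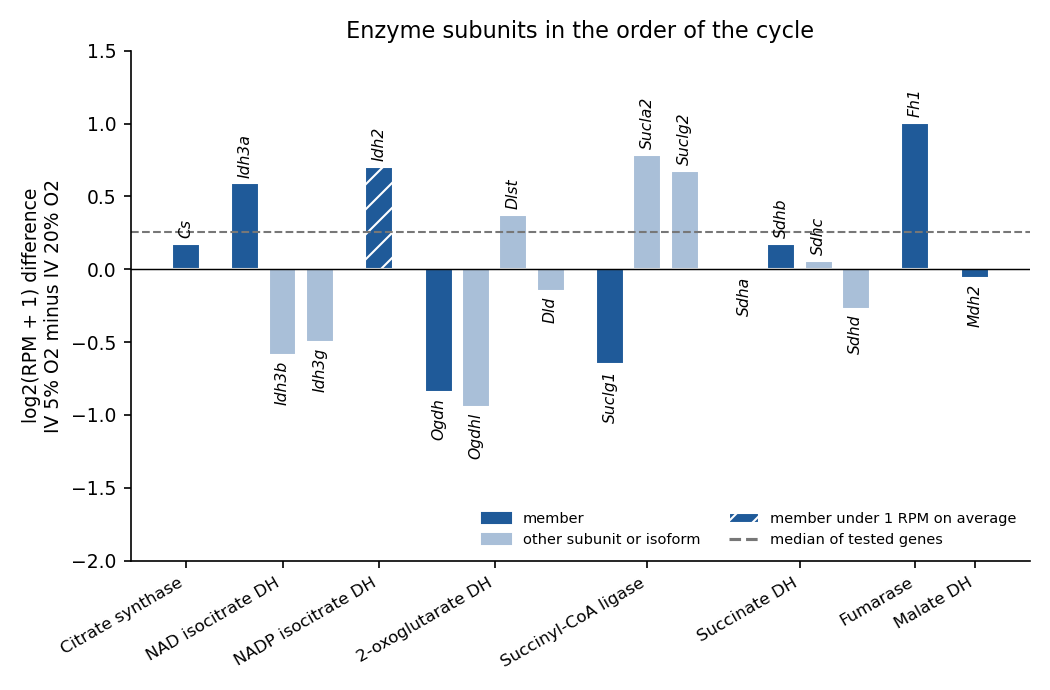
Log2(RPM + 1) difference, IV 5% O2 minus IV 20% O2 (y axis), for subunits and isoforms of mitochondrial enzymes, in the order of the cycle (x axis); dark bars are the 9 enzymes described, light bars other subunits, the hatched bar Idh2 under 1 RPM, and the dashed line the median gene at 0.26. Idh3a stands opposite Idh3b and Idh3g, and Suclg1 (-0.65) opposite Sucla2 (0.78) and Suclg2 (0.68).

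Succinate dehydrogenase is also complex II of the respiratory chain and hands its electrons straight to ubiquinone. Its flavoprotein Sdha (chr13:74322254-74350280) had 11717 reads, or 88.6 RPM, in IV 5% O2 against 3656 reads, or 89.4 RPM, in IV 20% O2. The ratio of 0.991 had an interval of 0.955 to 1.03 that included 1, and the difference was -0.01, or -0.27 relative to the median gene. After median-ratio and quantile scaling it was -0.33 and -0.22. The iron-sulphur subunit Sdhb (chr4:140961203-140979193) had 57.6 RPM (7618 reads) and 51.1 RPM (2087 reads). Its ratio was 1.13 (1.08 to 1.19) and its difference 0.17, which turned to -0.14 and -0.02 after median-ratio and quantile scaling. Of the membrane anchors, Sdhc had 35.6 and 34.2 RPM (0.06, and -0.25 and -0.11 after the other scalings), and Sdhd had 96.5 and 117 RPM (-0.27, and -0.59 and -0.47). The catalytic subunits were in nearly the same proportion in both columns: Sdha to Sdhb was 0.835 per exonic length in IV 5% O2 and 0.951 in IV 20% O2, a ratio of 0.878 (0.826 to 0.933). Of the 4 assembly factors of the complex, 2 were higher (all genes 62.6%) and 2 lower, 1 of them at least 2-fold (all genes 9.22%), with a median of -0.10 (-0.41 and -0.26 after median-ratio and quantile scaling). Sdhaf4, which binds the flavoprotein during assembly, had 7.49 and 30.4 RPM, a difference of -1.89. Sdhaf1, which acts in the maturation of the iron-sulphur subunit, differed by 0.91, but 69.6% of its exonic bases overlap a gene on the other strand.

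Fumarase, which hydrates fumarate to malate, held the highest difference of the 8. Fh1 (chr1:175600374-175625635) had 20902 reads, or 158 RPM, in IV 5% O2 against 3204 reads, or 78.4 RPM, in IV 20% O2. The ratio was 2.02 (1.94 to 2.09) and the difference 1.00, or 0.75 relative to the median gene, and 18.6% of all genes lay higher. The count of 1 enzyme at least 2-fold higher rests on a value at the limit: the difference was 0.69 and 0.79 after median-ratio and quantile scaling and 0.97 with an addition of 5 RPM. Per exonic length, Fh1 to Ogdh was 3.54 in IV 5% O2 and 0.973 in IV 20% O2, a ratio of 3.64 (3.46 to 3.83).

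Malate dehydrogenase closes the cycle by restoring oxaloacetate. The mitochondrial Mdh2 (chr5:135778480-135790398) had 8346 reads, or 63.1 RPM, in IV 5% O2 against 2690 reads, or 65.8 RPM, in IV 20% O2. The ratio was 0.959 (0.918 to 1.00) and the difference -0.06, or -0.32 relative to the median gene. After median-ratio and quantile scaling it was -0.37 and -0.26. The cytosolic Mdh1, its partner in the malate-aspartate shuttle, had 106 and 74.0 RPM (0.51, and 0.20 and 0.31 after the other scalings). Mdh1 to Mdh2 was 2.33 per exonic length in IV 5% O2 and 1.56 in IV 20% O2, a ratio of 1.49 (1.41 to 1.58), and 1.27 and 0.851 with the longest transcript.

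**Figure D3:**
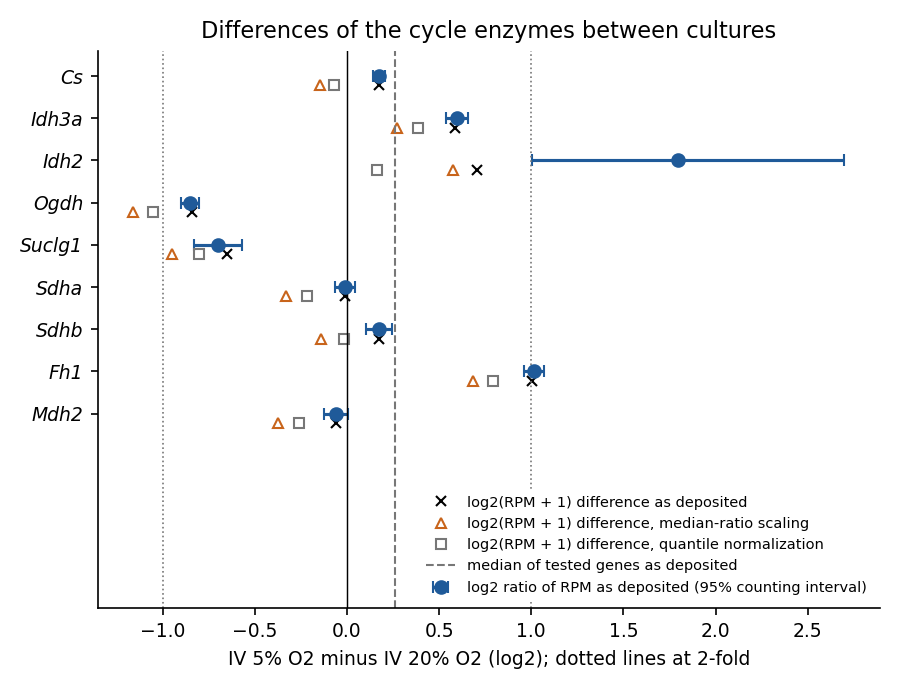
IV 5% O2 minus IV 20% O2 on a log2 scale (x axis) for the 9 enzymes in the order of the cycle (y axis): circles are log2 ratios of RPM with 95% counting intervals, crosses the log2(RPM + 1) difference, triangles and squares the same after median-ratio and quantile scaling. The markers of Cs and Sdhb cross 0 with the scaling, and the interval of Idh2 is the widest, as it rests on 157 and 14 reads.

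Levels of different genes are compared per length only, as RPKM, the RPM divided by the annotated exonic length in kilobases. In IV 5% O2 the order was Fh1 (46.6), Cs (40.5), Sdhb (25.7), Sdha (21.5), Idh3a (19.7), Mdh2 (17.7), Ogdh (13.2), Suclg1 (2.39) and Idh2 (0.459), and no neighbours overlapped in their counting intervals. In IV 20% O2 it was Cs (35.9), Ogdh (23.7), Fh1 (23.1), Sdhb (22.8), Sdha (21.7), Mdh2 (18.5), Idh3a (13.0), Suclg1 (3.88) and Idh2 (0.132), where the intervals of Ogdh and Fh1, of Fh1 and Sdhb, and of Sdhb and Sdha overlapped and those of other neighbours did not. The median of all genes was 4.71 RPKM in IV 5% O2 and 4.20 RPKM in IV 20% O2. Thus 7 of the 9 lay above the median gene in both columns, and Suclg1 and Idh2 below it. With the longest transcript in place of all exons, Cs was at rank 1 in both columns and Fh1 at rank 2 in IV 5% O2 and rank 6 in IV 20% O2. Ogdh was then at rank 7 and rank 4, and Suclg1 and Idh2 kept rank 8 and rank 9 in both.

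**Figure D4:**
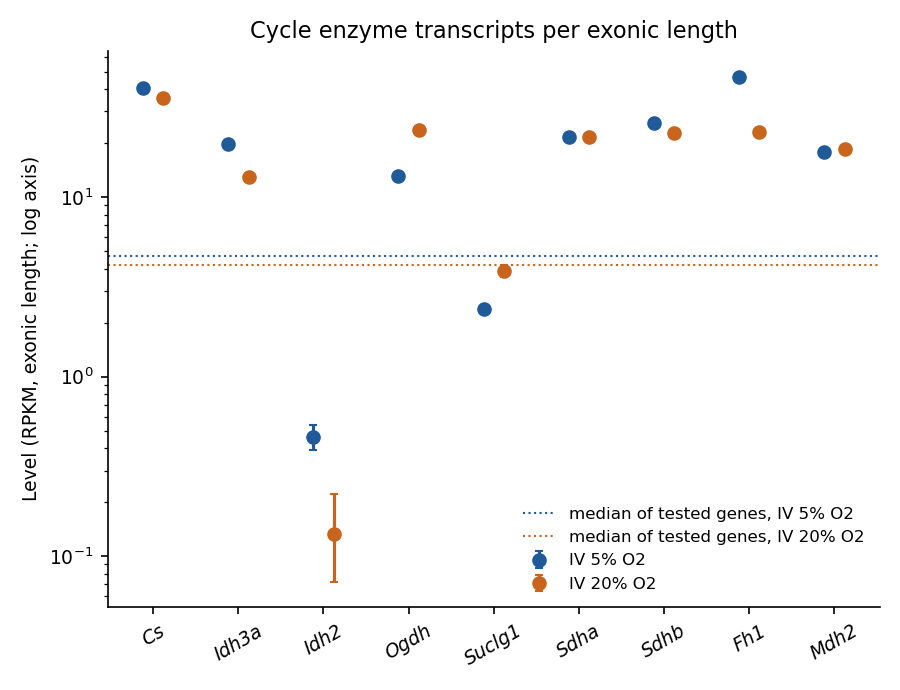
Level of the 9 enzymes in RPKM (log axis) in IV 5% O2 and IV 20% O2, with 95% counting intervals as bars and the median of all genes that reached 1 RPM on average as a line for each column. Suclg1 and Idh2 lie below the median genes (4.71 and 4.20 RPKM), and Fh1 stands 3.54 times above Ogdh in IV 5% O2 but level with it (0.973) in IV 20% O2.

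The 9 genes lie on 9 different chromosomes of GRCm38 and their exonic lengths run from 2239 to 5779 bases (median of all genes 4071). Their exonic GC content is 43.8% to 55.4% (median 48.9%). No exon of any of the 9 overlaps an exon of another annotated gene. Exonic windows of 100 bases that occur elsewhere in the genome were found for Suclg1 alone of the 9 (1.10% of its windows), and of the windows of 50 bases for Suclg1 (3.38%), Cs (2.64%) and Fh1 (0.345%).

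The rest of the pathway was described by 7 lists of 55 genes, of which Csl, Pdk2 and Pdk4 are not analysed here. Of the 51 genes that reached 1 RPM on average, 28 were higher (all genes 62.6%) and 23 lower, 5 at least 2-fold higher (all genes 18.7%) and 3 at least 2-fold lower (all genes 9.22%), with a median difference of 0.092 (-0.17 relative to the median gene). Esrra among the 5 and D2hgdh among the 3 reached that average only through the column where they are high. Their place in these counts therefore depends on the difference counted. The 9 remaining subunits and isoforms, named above, split into 4 higher and 5 lower with a median of -0.15, and 0 of them were 2-fold apart. After median-ratio and quantile scaling their median was -0.47 and -0.40, and Ogdhl, at -1.26 and -1.12, passed the 2-fold limit. Of the cytosolic counterparts 4 of 5 were higher, beside 62.6% of all genes, with a median of 0.51 that stayed positive after median-ratio (0.20) and quantile scaling (0.31). Idh1 (1.85) was the highest of them, and Acly (-0.34), which splits citrate for lipid synthesis, was the lowest.

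Pyruvate dehydrogenase, its kinases and its phosphatases had 5 of 9 genes higher (all genes 62.6%, as for the lists that follow) and a median of 0.12. Pdhx, which anchors Dld in the complex, had 155 and 76.1 RPM (1.01), and Pdpr, which regulates the phosphatase, 32.6 and 62.8 RPM (-0.92). Of 10 genes for the entry and exit of intermediates 5 were higher, with a median of 0.01. They ran from Me3, a mitochondrial malic enzyme (6.84 and 2.40 RPM, 1.21), to D2hgdh, which oxidizes D-2-hydroxyglutarate to 2-oxoglutarate (0.227 and 2.72 RPM, -1.60). Of 7 carriers 4 were higher, with a median of 0.06, from Slc25a13, an aspartate-glutamate carrier (0.47), to Mpc1, a subunit of the pyruvate carrier (2.22 and 16.1 RPM, -2.41). The values of Mpc1 and D2hgdh are uncertain, as 35.3% and 25% of their exonic windows of 100 bases occur elsewhere in the genome. D2hgdh also reached an average of 1 RPM through IV 20% O2 alone. The medians of these 3 lists turned negative after median-ratio scaling (-0.20, -0.30 and -0.23) and quantile normalization (-0.097, -0.19 and -0.092). They also depended on the filter and the length: the medians were 0.12, 0.25 and -0.098 where genes averaged at least 5 RPM, and 0.27, 0.21 and -0.18 after division by exonic length. With 5 RPM added, the median for entry and exit was -0.018.

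Among the regulators of mitochondrial gene transcription 4 of 7 were higher (all genes 62.6%) and 2 at least 2-fold higher (all genes 18.7%). Their median of 0.38 was 0.068 and 0.18 after median-ratio and quantile scaling. It was 0.074 both with no filter on low genes and where genes averaged at least 5 RPM, and division by exonic length gave 0.084. The coactivator Ppargc1b had 15.1 and 2.01 RPM (2.42), and the nuclear receptor Esrra, which it binds and which is named as the other gene of this count, 4.68 and 0.563 RPM (1.86). Esrra reached an average of 1 RPM through IV 5% O2 alone, so its place in this count depends on the difference counted. Yy1, a general transcription factor, was the lowest at -0.53.

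**Figure D5:**
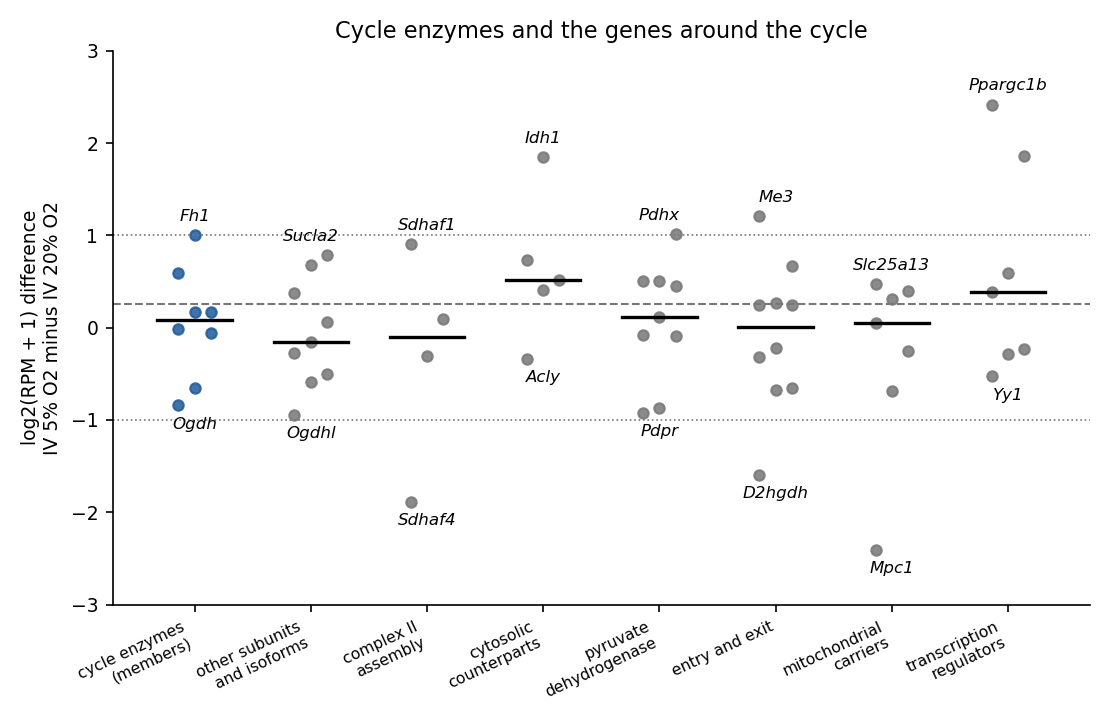
Log2(RPM + 1) difference, IV 5% O2 minus IV 20% O2 (y axis), for the cycle enzymes and the genes of each of the 7 lists (x axis); each point is a gene that reached 1 RPM on average, the short bars are list medians, the dashed line is the median gene at 0.26 and dotted lines mark 2-fold. The points of each list lie on both sides of 0, and Mpc1 (-2.41) and Ppargc1b (2.42) are the outermost.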

How the data were processed

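RNA-seq of IV 5% O2 and IV 20% O2 oocytes (2 libraries each) was used; RRBS (8 libraries) and PBAT (12) libraries were not analysed here. The authors aligned reads to mm10 with TopHat (TopHat2 2.0.9 in the submitters' processing notes), merged reads across exons with an oocyte annotation in SeqMonk, and deposited log2 values, 1 pooled column per condition. How the libraries were combined is not given in the sources used here. Although the methods describe a length correction, 99.98% of the linear values in each column were whole multiples of 1 read (within 0.1 read), the same for every gene, so they were read as log2 RPM. Genes without reads are listed at 0.9 of 1 read and were set to 0. The table has 1 further value column that matches no sample and was not used.

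Of its 16591 rows, 16396 genes had exactly the coordinates of a gene in the GENCODE M21 annotation of GRCm38, all 9 cycle enzymes included, and 16553 could be given one. Exonic lengths come from that annotation, which may differ from the authors' own, and a repeated window (every 10 bases) is one that occurs at least 2 times in 22 genome sequences. The counts on genes were 109629353 reads in IV 5% O2 and 29754908 in IV 20% O2. They are a larger share of the depth in IV 5% O2, and the RPM as deposited are not corrected for it. No count model or limma was run, since columns are not replicates. The Clopper-Pearson intervals alone were tried on simulated Poisson reads, which hold counting error only. That is a check of the calculation and not of the spread between libraries. A fold limit of 2 served for counts.

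The cycle enzymes and lists were chosen with earlier results of these data known. Named are all 9 enzymes, all remaining subunits on the list, the highest and lowest gene of each other list and partners of the enzymes in a complex; Mdh1 was added as the counterpart of Mdh2. Esrra was named after its value was seen. Besides Csl, Pdk2 and Pdk4, 1 further gene planned for the lists is not reported here. Where a name repeats (18 names), the row with the highest mean stands for the gene. Alternatives were pseudocounts of 0.1 and 5 RPM, median-ratio and quantile scaling, other filters on low values, rows summed per gene, division by length and leaving out each enzyme. The intervals were computed with scipy 1.17.1, the tables with pandas 2.3.3 and numpy 2.4.6 and the repeated windows with numba 0.67.0, under Python 3.11.15; plots were drawn with matplotlib 3.10.9.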

Additional observations from a re-analysis of the deposited data

How the results depend on the processing

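No paired analysis was possible because the table holds 1 pooled column per condition; the replicate block and leaving out each replicate were not run. The differences of the 9 enzymes kept their direction in 50 of 54 recomputations, but most of the 54 could not turn it. Another pseudocount, division by length or rows summed per gene leave the sign of an enzyme as it is. Only median-ratio and quantile scaling could turn it, and the 4 others are Cs and Sdhb under these scalings. The median of the enzymes (0.08) was -0.24 after median-ratio scaling, -0.14 after quantile normalization and 0.17 with no filter, and ran from -0.013 to 0.17 when each enzyme was left out; relative to all genes (-0.18) it was -0.11 with 5 RPM added and with no filter. With 5 RPM added, after either scaling and after division by length (1609 of all 12089 genes higher, 899 lower), 0 enzymes were at least 2-fold higher. After either scaling 1, Ogdh, was at least 2-fold lower. Higher by any size were then 2, with the median gene at -0.04 and 0.06. The 51 other genes had a median of -0.22 and -0.092 after median-ratio and quantile scaling, with 3 and 3 at least 2-fold higher (of all 14634 and 14705 genes, 1700 and 1764) and 6 and 7 at least 2-fold lower (2031 and 1866); those at least 2-fold higher numbered 2 with 5 RPM added, 3 where genes averaged at least 5 RPM and 2 after division by length. Over all 14704 genes, with 5 RPM added, 1202 and 706 of them were at least 2-fold higher and lower, against 2753 and 1356. An average of 5 RPM left 10755 genes, with 1691 and 917. Depth limits Idh2 (14 reads in IV 20% O2) most, and the scalings and the absence of replicates limit the differences of all 9 enzymes.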
